A study of Mus musculus with 6 samples.

Results

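Matrix metalloproteinases (MMPs), the ADAM and ADAMTS proteases and the 4 tissue inhibitors of metalloproteinases (TIMPs) were described in cells sorted from mouse cortex after a stroke. Members were taken by gene symbol from the deposited table. They were Mmp, Adam and Adamts followed by a number (with a letter a or b where there is one) and Timp1 to Timp4, 79 of the 24419 symbols. They comprised 23 MMPs, 33 ADAMs, 19 ADAMTS proteases and 4 TIMPs. Of these, 52 reached a mean of 1 CPM (reads scaled to the library's total) over all libraries and were tested, and 27 stayed under it, 12 of them without a read.

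MMPs are zinc-dependent enzymes that are made as inactive precursors and cut collagens, gelatin, laminins and proteoglycans once activated. ADAMs are membrane proteins, and those with a working catalytic site release the outer part of other membrane proteins, such as cytokines, growth factors, adhesion molecules and the amyloid precursor protein. ADAMTS proteases are secreted and act on matrix proteins, among them the proteoglycans of perineuronal nets and the propeptides of collagens. TIMPs block the active site, and after cerebral ischaemia this balance of protease and inhibitor is known for its part in opening the blood-brain barrier and in later remodelling.

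All animals were male wild type C57BL/6N mice whose middle cerebral artery had been occluded for 60 min. One group was given 600 ng of 15-HETrE, a hydroxylated fatty acid, and the other vehicle. Each received it by vein in 150 µL of saline at 24, 48 and 72 h. On day 4 the cortex around the infarct was dissociated with pronase for 75 min and sorted for Thy1, leaving out cells with ACSA2, CD31, CD45 or O4. There were 3 libraries per group. By their column names they are called 15-HETrE 1, 15-HETrE unnumbered and 15-HETrE combined, and vehicle 1, vehicle 2 and vehicle combined. The sources used here do not say what combined means. Whether the libraries stand for separate animals is not stated either, so p-values measure only how far the libraries differ, and that may be technical. The comparison asks how the transcripts of these sorted cells differ between mice given 15-HETrE and mice given vehicle.

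What the proteases share in sequence is the zinc-binding site, in which 3 histidines hold the metal and a glutamate takes part in catalysis. It was searched in the longest coding sequence of each member (GENCODE M21, GRCm38) as 11 codons, with codons for histidine at places 1, 5 and 11 and for glutamate at place 2. Of the 79 members, 61 had it. These were 22 of 23 MMPs (not Mmp1a in the transcript used), 20 of 33 ADAMs, 19 of 19 ADAMTS and 0 of 4 TIMPs. The sites of the proteases to which the results return most often are shown on the coding strand, with the codons of those 4 residues and of the residue at place 8 in capitals. The codon at place 8 encoded glycine in 55 of the 61, asparagine in Adamts1, Adamts4, Adamts9, Adamts15 and Adamts20, and another residue in Adamts8.
Mmp2, chr8:92839279-92839311, plus strand, exon 8: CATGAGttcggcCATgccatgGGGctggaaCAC
Mmp9, chr2:164951133-164951165, plus strand, exon 8: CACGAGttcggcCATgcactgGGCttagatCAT
Mmp14, chr14:54437627-54437659, plus strand, exon 5: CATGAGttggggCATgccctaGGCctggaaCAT
Adam9, chr8:24990326-24990358, minus strand, exon 11: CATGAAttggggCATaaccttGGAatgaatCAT
Adam10, chr9:70754296-70761585, plus strand, across exons 9 and 10: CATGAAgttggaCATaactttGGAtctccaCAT
Adam17, chr12:21336732-21336764, minus strand, exon 12: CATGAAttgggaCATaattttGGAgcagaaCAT
Adam19, chr11:46125050-46125082, plus strand, exon 11: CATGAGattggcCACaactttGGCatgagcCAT
Adamts1, chr16:85799191-85799545, minus strand, across exons 3 and 4: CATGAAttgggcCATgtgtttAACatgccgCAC
Adamts7, chr9:90179456-90180640, plus strand, across exons 7 and 8: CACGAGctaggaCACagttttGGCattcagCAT

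Library depth was 7993084 to 21324527 reads in the 15-HETrE libraries and 5405245 to 22558400 reads in the vehicle libraries. The shallowest, vehicle combined, stood apart. It had no read for 14 tested members that vehicle 1 and vehicle 2 both held, and 3 reads in it are worth 0.540 CPM. Without it, the log2 fold changes of 37 of the 52 tested members moved by over 1.5 times, and that of Timp2 also changed sign, so the value without it is given for the calls it changes and for members named here whose value moved far. Markers of neurons, the labelled cell type, had a mean level of 7.67 to 8.29 in the 15-HETrE libraries and 6.69 to 7.58 in the vehicle libraries (log2(CPM + 1)), with none of 10 at 0 in any library. Oligodendrocyte-lineage markers lay at 9.03 to 9.83 and 8.74 to 9.34, although the sort left out O4. All 10 fibroblast markers were lower in 15-HETrE. Their summed level was 1182 to 1865 CPM in the 15-HETrE libraries, against 1474 to 9689 CPM in the vehicle libraries. Fap had no read in 15-HETrE unnumbered and Postn none in vehicle combined. In vehicle combined the fibroblast sum was 1474 CPM, against 9689 and 7672 CPM in vehicle 1 and vehicle 2. Pericyte and smooth muscle markers were lower for 9 of 10, at summed levels of 539 to 982 CPM against 1263 to 1629 CPM, with none at 0. Astrocyte markers were higher for 9 of 10, and both combined libraries stood apart for them. They summed to 20953 CPM in 15-HETrE combined and 7789 CPM in vehicle combined. In the other libraries the sums were 3729 and 1434 CPM for 15-HETrE and 1072 and 685 CPM for vehicle. The part of these cells in the results below was not tested.

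Of the 52 members tested, 34 were lower and 18 higher in the 15-HETrE libraries. Among those lower, Mmp9, Mmp12, Adamts7 and Adamts12 passed the filter only through the vehicle libraries. Among those higher, Adam21 and Adamts18 passed it only through the 15-HETrE libraries. The direction of their means was thus fixed by how they entered. None of the 52 passed the test over all genes. The share that was lower, 65.4%, stands beside 49.0% of the 14523 genes tested, and the median log2 fold change of the members was -0.52, beside 0.02 over all genes. limma called 0 members at an adjusted p of 0.05, where the background of all genes was 0.0%, and edgeR on the recovered reads also called 0. The smallest adjusted p of a member in limma was 0.358, for Timp1. At an unadjusted p under 0.05, limma had 1 member higher and 7 lower, beside 4.27% and 5.23% of all genes. DESeq2 called 0 members as higher and 1, Timp1, as lower, against backgrounds of 0.241% and 0.895%. Of the 52 tested, 1 member on the higher side, Adam23, and 7 on the lower side had groups without overlap, where the background was 6.84% and 8.32%. Those 7 were Timp1, Adam9, Adam10, Adam17, Adam19, Adamts1 and Adamts7. The summed level of all 79 members was 2070, 2269 and 2036 CPM in 15-HETrE 1, unnumbered and combined, against 2907, 2890 and 2378 CPM in vehicle 1, 2 and combined, so every 15-HETrE sum lay below every vehicle sum. In bulk samples, fewer cells of a type and less RNA per cell cannot be told apart.

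**Figure D1:**
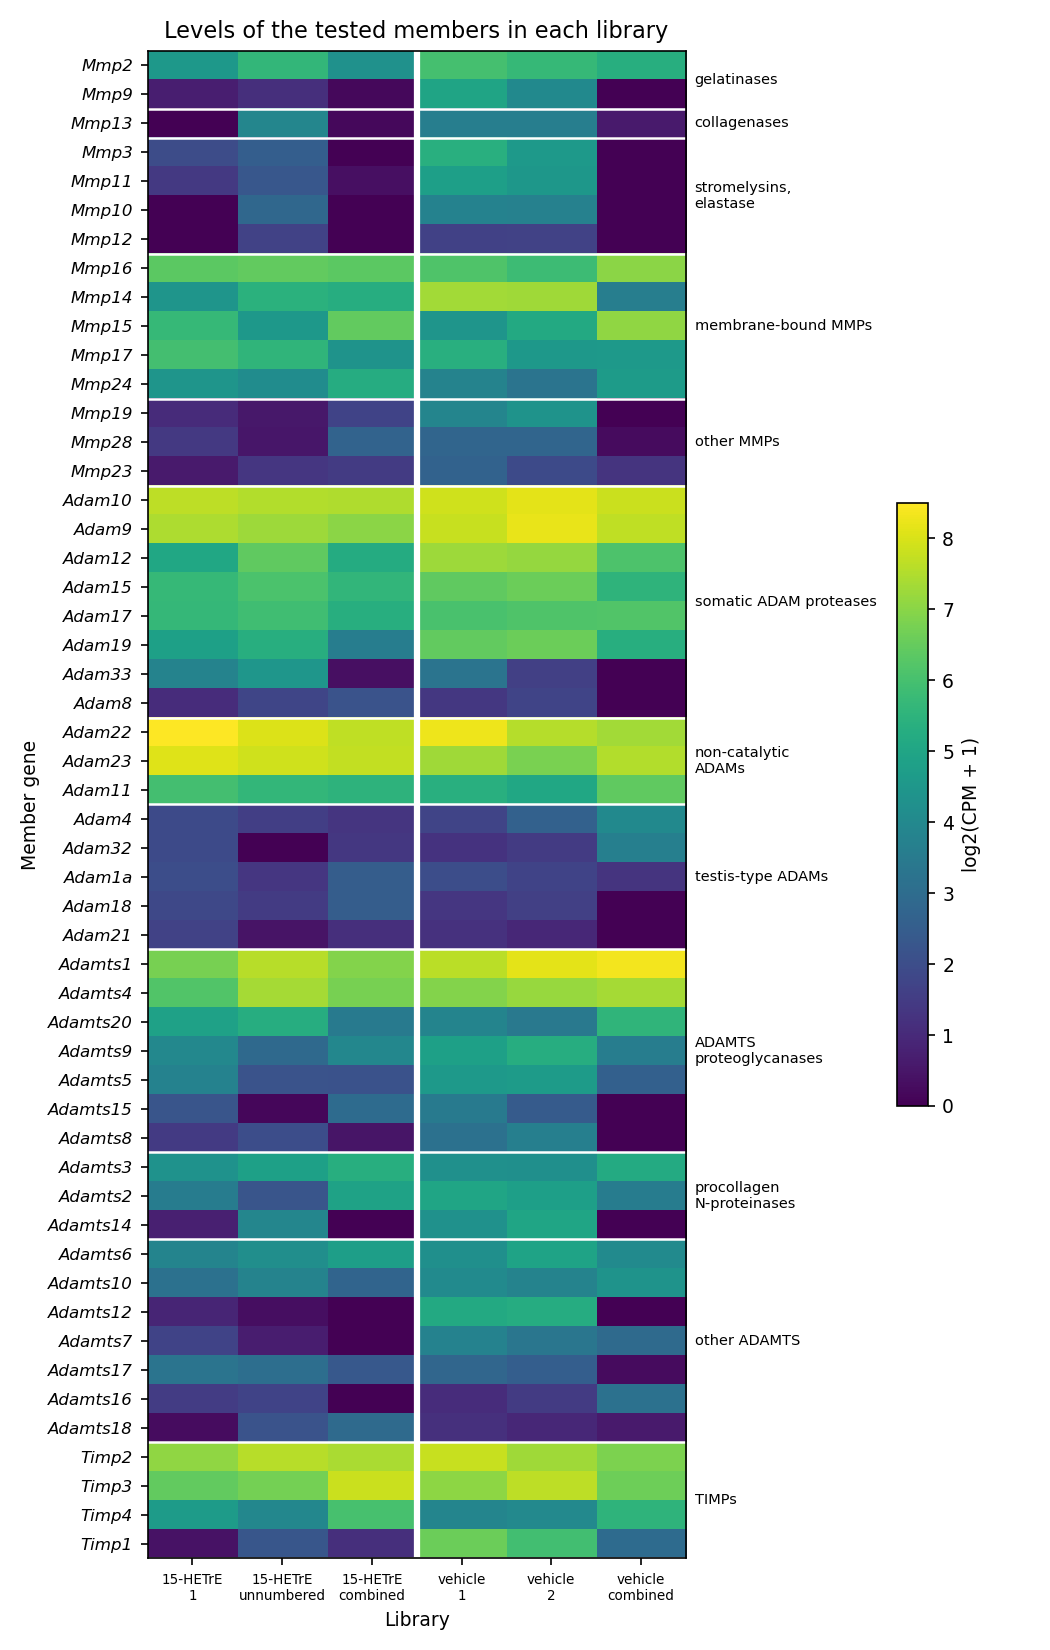
Level of each of the 52 tested members in the 6 libraries, as log2(CPM + 1) on a colour scale, with members ordered within their group by mean level; the 3 libraries at the left are 15-HETrE and the 3 at the right vehicle. Timp1 is bright in vehicle 1 and vehicle 2 (94.1 and 59.4 CPM) and dark in all 15-HETrE libraries (0.319 to 3.82 CPM), and vehicle combined is dark for Mmp9, Mmp3 and Adamts12, each with 0 CPM there.

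**Figure D2:**
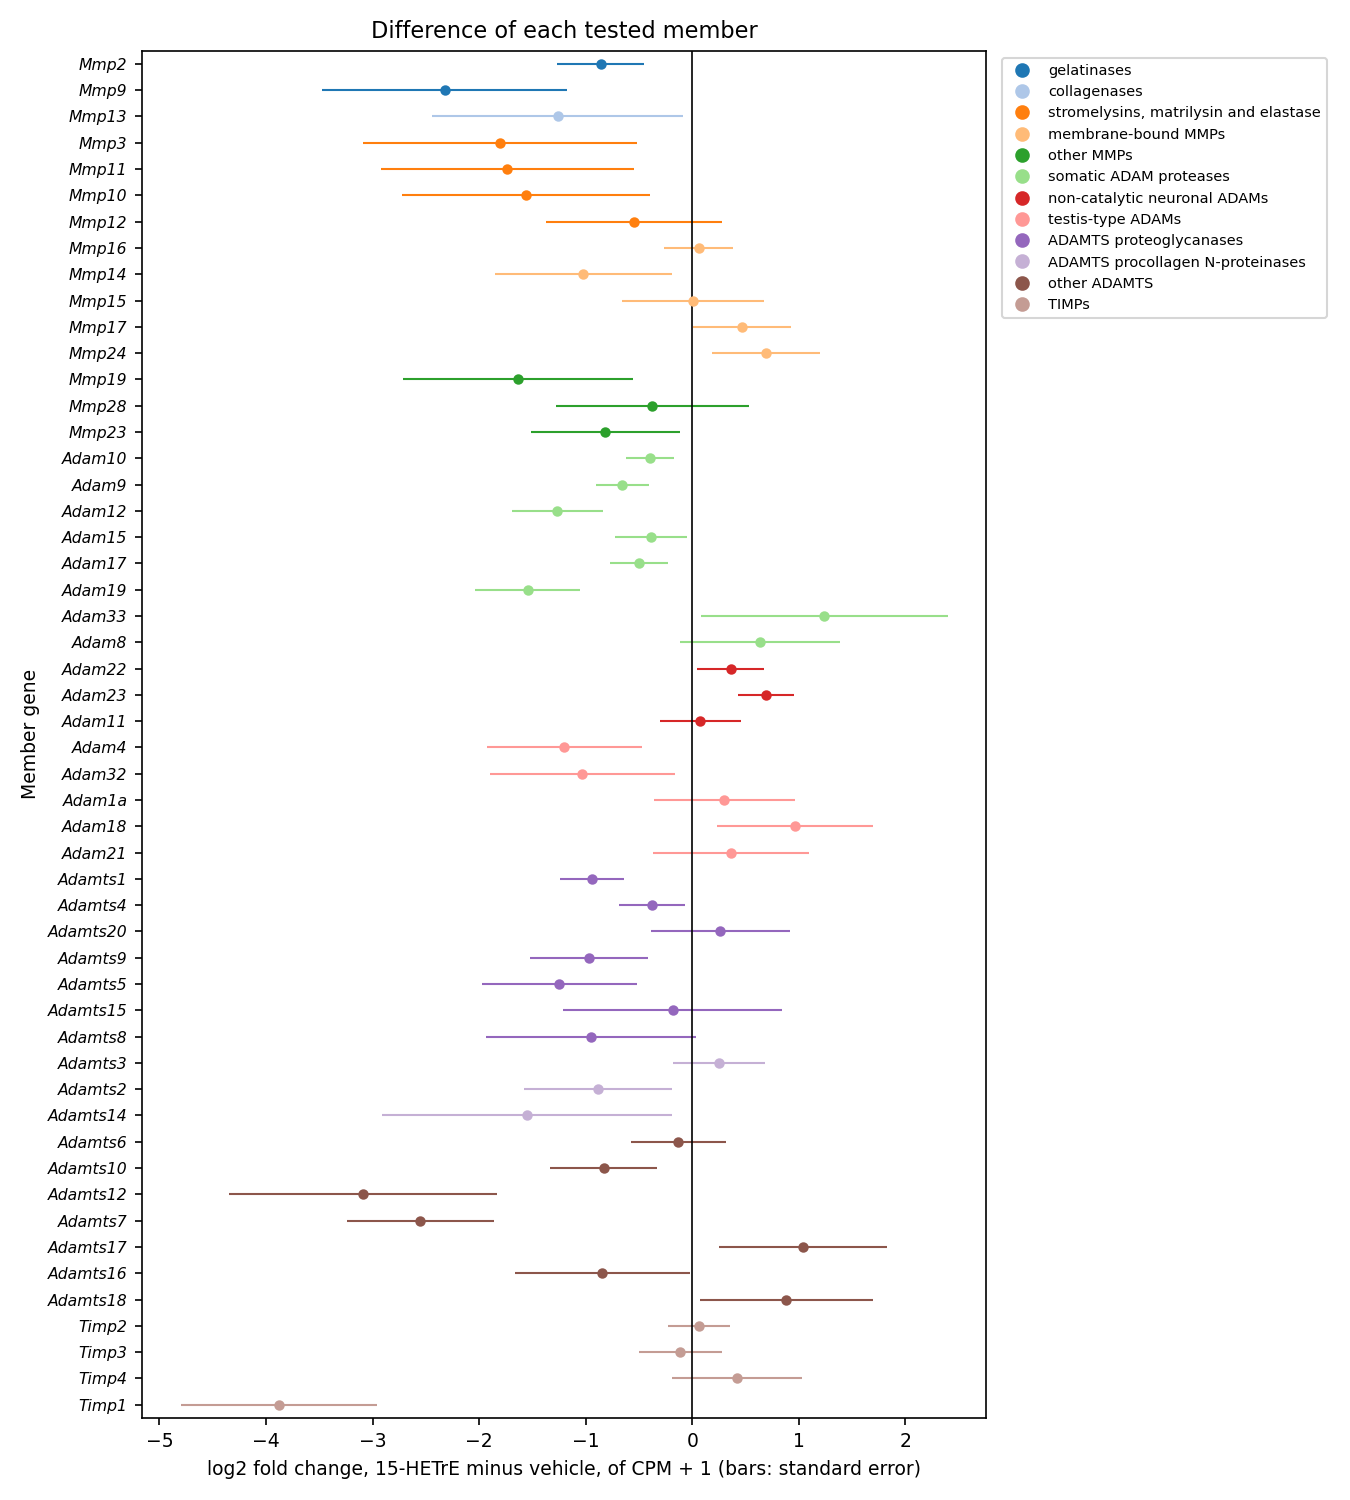
Log2 fold change of each tested member, 15-HETrE minus vehicle, on the scale of CPM + 1 (x axis), with its standard error as a bar and its group as a colour; members run down the page in the order of their groups. Of the 52, 34 lie left of 0, with Timp1 at -3.88 and Adamts12 at -3.09 farthest out, and none passed the test over all genes.

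Among the inhibitors, Timp1 was the member with the smallest p. Timp2 and Timp3 stood at similar means in both groups, while Timp4 had means of 34.5 CPM in 15-HETrE and 24.5 CPM in vehicle, with overlapping libraries. Timp1, the inducible inhibitor that is raised by injury and inflammation, lies on chromosome X (20870166 to 20874735, GRCm38). It had 0.319, 3.82 and 1.22 CPM in 15-HETrE 1, unnumbered and combined, against 94.1, 59.4 and 6.83 CPM in vehicle 1, 2 and combined. These values rest on 7, 64 and 9 reads in the 15-HETrE libraries and on 2013, 1320 and 38 reads in the vehicle libraries. Every 15-HETrE library was below every vehicle library, and vehicle combined was closer to the 15-HETrE libraries than to the other two vehicle libraries. Its log2 fold change was -3.88 (SE 0.92, limma adjusted p 0.358, edgeR adjusted p 0.468, DESeq2 adjusted p 8.12e-05). Without vehicle combined it was -4.97 (limma adjusted p 0.0165), and without both combined libraries -4.91 (limma adjusted p 0.0257). Within the combined pair alone the difference was -1.82, and within 15-HETrE 1, vehicle 1 and vehicle 2 it was -5.84. Beside it, the fibroblast marker list differed by -0.72 and -4.28 (mean over 10 markers, log2 scale), and its part in this difference was not tested.

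Timp2, which besides blocking MMPs helps Mmp14 to activate pro-Mmp2, had 136, 193 and 168 CPM in 15-HETrE 1, unnumbered and combined, against 221, 156 and 112 CPM in vehicle 1, 2 and combined. Timp3, the matrix-bound inhibitor that also blocks Adam17 and the aggrecanases, had 87.5, 104 and 224 CPM in those 15-HETrE libraries, against 133, 199 and 96.9 CPM in those vehicle libraries. Timp4 had 24.5, 14.3 and 64.6 CPM in the 15-HETrE libraries, against 13.6, 14.8 and 45.1 CPM in the vehicle libraries. The groups overlapped for all 3, and for Timp4 the combined library was the highest of its group on both sides. Their log2 fold changes were 0.06 (SE 0.29), -0.11 (SE 0.39) and 0.42 (SE 0.61), with limma adjusted p of 0.955, 0.946 and 0.847. The sign of each changed under at least 1 alternative, and without vehicle combined the values were -0.18, -0.36 and 0.95. Per kilobase of exon, mean levels in the 15-HETrE libraries were 42.5 ± 7.31 for Timp2, 17.0 ± 9.13 for Timp3, 5.85 ± 4.51 for Timp4 and 2.01 ± 2.05 for Timp1 (CPM per kb, SD, n = 3). In the vehicle libraries they were 41.8 ± 14.0 for Timp2, 17.5 ± 6.34 for Timp3, 4.16 ± 3.03 for Timp4 and 60.2 ± 49.5 for Timp1. Timp1 was thus the lowest TIMP per length in the 15-HETrE libraries and had the highest mean in the vehicle libraries, where its spread covered Timp2.

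Timp1, Timp3 and Timp4 each lie inside a synapsin gene on the opposite strand, Syn1, Syn3 and Syn2, which encode synaptic vesicle proteins of neurons. Timp1 shares no exon base with Syn1, while 21.3% of the exon bases of Timp3 and 1.53% of those of Timp4 are shared with Syn3 and Syn2. The sources used here do not say whether the authors' counting used strand, and without strand such reads cannot be assigned to one of both genes. Syn1 had 367, 190 and 328 CPM in 15-HETrE 1, unnumbered and combined, against 231, 110 and 166 CPM in vehicle 1, 2 and combined. It was thus higher on average in 15-HETrE, with overlapping libraries and a log2 fold change of 0.81 (SE 0.34, limma adjusted p 0.507), while Timp1 inside it was lower.

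**Figure D3:**
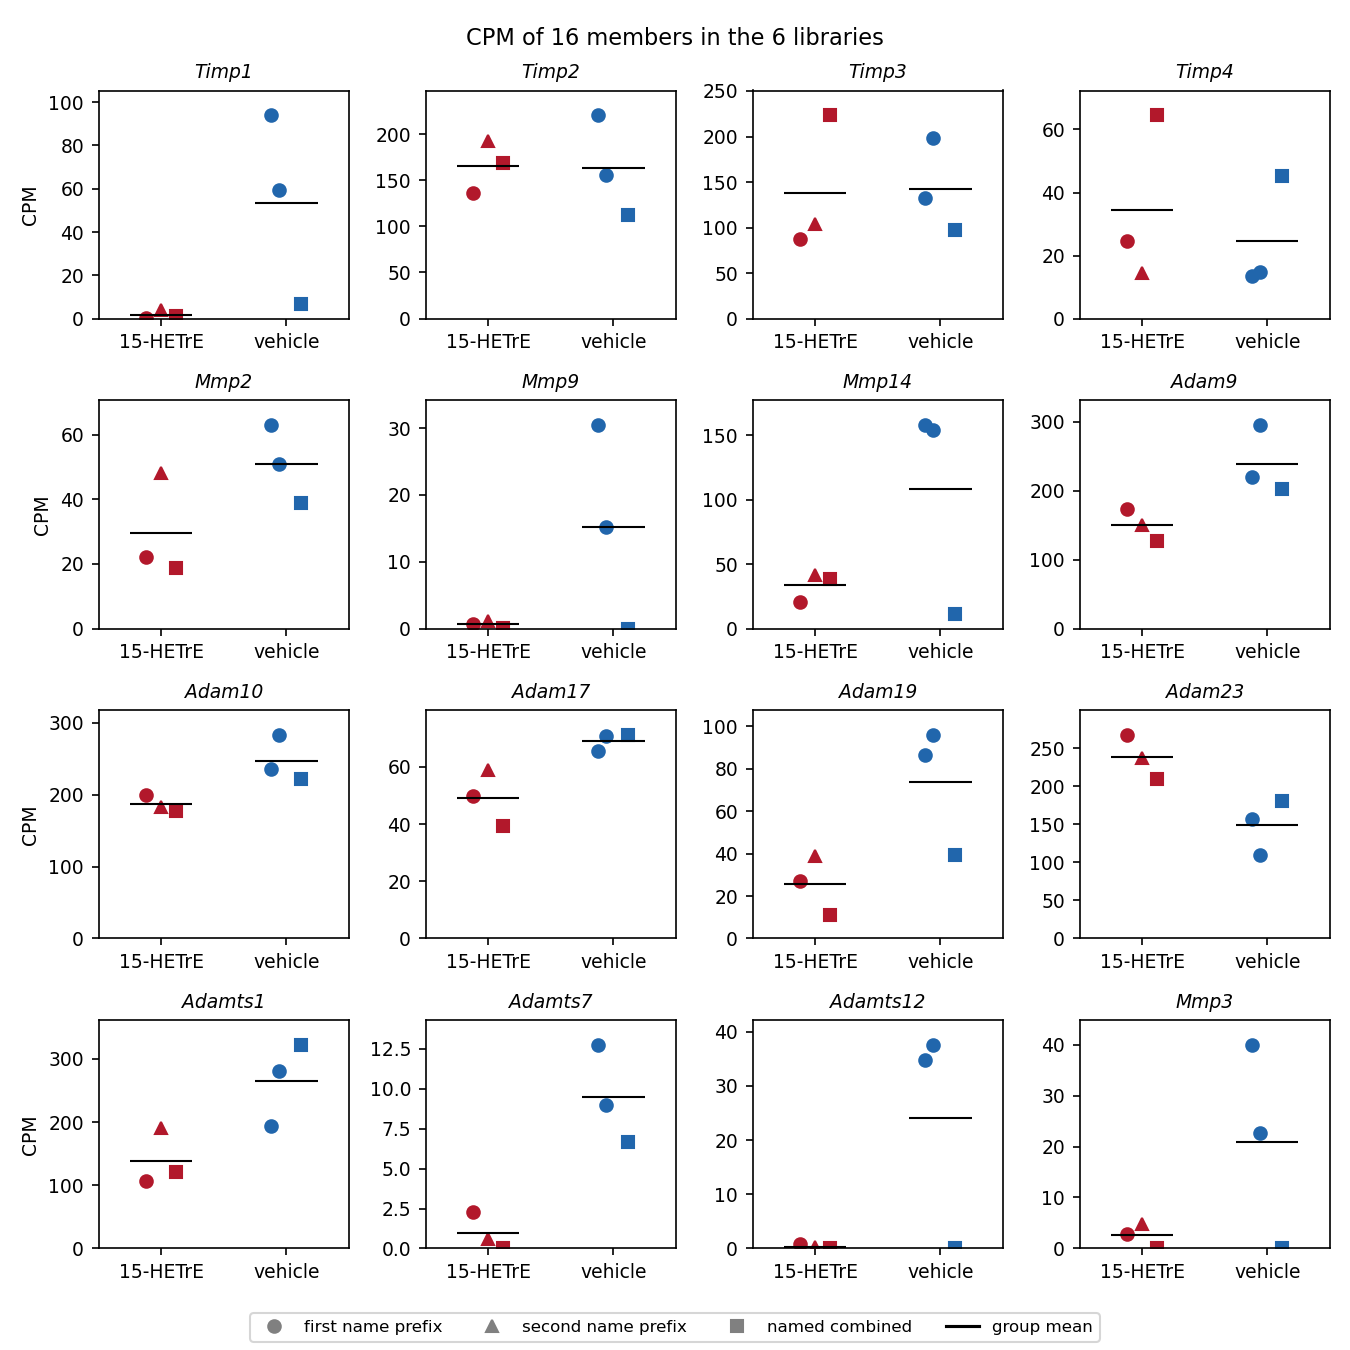
CPM (y axis, from 0) of 16 members in each library, 15-HETrE at the left and vehicle at the right of each panel; the marker shape gives the prefix of the column name or the word combined, and the line is the group mean. The groups do not overlap for Timp1, Adam9, Adam10, Adam17, Adam19, Adam23, Adamts1 and Adamts7, and vehicle combined (square) lies near the 15-HETrE libraries for Timp1, Mmp9, Mmp14, Mmp3 and Adamts12.

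Most of the secreted MMPs were lower in 15-HETrE on average, and for most of them this came from vehicle 1 and vehicle 2. Of the 15 MMPs tested, 11 were lower and 4 higher, with a median log2 fold change of -0.86, and no MMP had groups without overlap. Mmp2, gelatinase A (chromosome 8, 92827291 to 92853420), had 22.1, 48.2 and 18.7 CPM in 15-HETrE 1, unnumbered and combined, against 63.1, 50.8 and 39.0 CPM in vehicle 1, 2 and combined. Only 15-HETrE unnumbered reached into the vehicle range. Its log2 fold change was -0.86 (SE 0.41, limma adjusted p 0.552). Mmp9, gelatinase B (chromosome 2, 164940780 to 164955850), a protease known for cutting the vascular basement membrane after stroke, had 0.637, 1.19 and 0.135 CPM in those 15-HETrE libraries, against 30.5, 15.2 and 0 CPM in those vehicle libraries. Vehicle 1 and vehicle 2 stood above all 15-HETrE libraries, and vehicle combined, with no read, stood below them. The log2 fold change of Mmp9 was -2.32 (SE 1.15, limma adjusted p 0.569), and without vehicle combined it was -3.82 (limma adjusted p 0.0371). Mmp9 is also a neutrophil gene. The 9 listed neutrophil and monocyte markers found in the table summed to 1.61 to 4.73 CPM in the 15-HETrE libraries and 4.90 to 9.40 CPM in the vehicle libraries. Of the 9, only 2 reached the filter, and Cxcr2 was at 0 in every library. No read was found for 3, 7 and 8 of them in 15-HETrE 1, unnumbered and combined. In vehicle 1, 2 and combined this held for 2, 3 and 7. The sums thus rest on few genes in 15-HETrE unnumbered and both combined libraries, and their part in the level of Mmp9 was not tested.

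The 4 tested members of the stromelysin and elastase group were all lower on average, with a median of -1.65, and so was Mmp13, the only collagenase tested. Mmp3, stromelysin-1, which cuts proteoglycans and activates other MMPs, had 2.91, 4.77 and 0 CPM in 15-HETrE 1, unnumbered and combined, against 40.0, 22.6 and 0 CPM in vehicle 1, 2 and combined. Mmp13, the main interstitial collagenase of rodents, had 0, 13.9 and 0.135 CPM in the 15-HETrE libraries, against 11.3, 11.3 and 0.540 CPM in the vehicle libraries. For Mmp3 both numbered vehicle libraries were above every 15-HETrE library, while for Mmp13 the highest of all was 15-HETrE unnumbered. Mmp10, stromelysin-2, had 6.09 CPM in 15-HETrE unnumbered and 0 in the other two 15-HETrE libraries, against 12.7 and 12.2 CPM in vehicle 1 and vehicle 2 and 0 in vehicle combined. Mmp11, stromelysin-3, had 1.64, 4.00 and 0.270 CPM in the 15-HETrE libraries, against 26.6, 21.4 and 0 CPM in the vehicle libraries. Mmp12, the macrophage elastase, had at most 2.21 CPM in a 15-HETrE library and 2.20 CPM in a vehicle library. The pattern of all 5 was 2 vehicle libraries with reads and vehicle combined with none or 3 reads. Their log2 fold changes were -1.81 for Mmp3, -1.74 for Mmp11, -1.56 for Mmp10, -1.26 for Mmp13 and -0.54 for Mmp12, with limma adjusted p from 0.666 to 0.854. Without vehicle combined they were -3.46 for Mmp3, -3.28 for Mmp11, -2.81 for Mmp10, -2.26 for Mmp13 and -1.10 for Mmp12. Without both combined libraries, Mmp3 and Mmp11 passed at -2.71 and -2.78 (limma adjusted p 0.0465 and 0.0490).

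Mmp3, Mmp10, Mmp12 and Mmp13 belong to a row of 10 MMP genes on chromosome 9, which also holds Mmp1a, Mmp1b, Mmp7, Mmp8, Mmp20 and Mmp27 within 427 kb (7272514 to 7699585, GRCm38). Summed over the 10 genes the level was 3.05, 27.0 and 0.135 CPM in 15-HETrE 1, unnumbered and combined, against 68.6, 54.5 and 0.540 CPM in vehicle 1, 2 and combined. The 4 tested genes of the row were all lower, with a median log2 fold change of -1.41, and 15-HETrE unnumbered had the largest sum of its group. Promoters of several of these genes are known to hold a binding motif of the AP-1 factors, which are induced by injury. The motif TGANTCA, which reads the same on both strands, was searched in the 250 bases before each RefSeq start (GRCm38.p6). It stood before 8 of the 10 genes, all but Mmp8 and Mmp27, at 35 to 95 bases upstream. Among all genes with a promoter sequence 7.82% had it, and among the 49 members with one 12 did, 24.5%, so 8 of these 12 were neighbours in a single row of related genes. None of the TIMPs with a promoter sequence had it. The 100 bases before the start are shown for the 4 tested genes of the row. The motif is in capitals, all are on the plus strand, and a match is a description of the letters only. For Mmp12 the sequence belongs to one of its 2 starts, as the other has no match.
Mmp13, chr9:7272414-7272513: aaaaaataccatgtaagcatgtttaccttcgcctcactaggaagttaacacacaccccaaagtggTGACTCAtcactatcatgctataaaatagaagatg
Mmp12, chr9:7347274-7347373: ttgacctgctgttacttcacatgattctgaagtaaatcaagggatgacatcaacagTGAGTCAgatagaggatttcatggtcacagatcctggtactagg
Mmp3, chr9:7445722-7445821: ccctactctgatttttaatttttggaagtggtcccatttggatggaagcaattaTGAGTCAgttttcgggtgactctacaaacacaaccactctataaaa
Mmp10, chr9:7502242-7502341: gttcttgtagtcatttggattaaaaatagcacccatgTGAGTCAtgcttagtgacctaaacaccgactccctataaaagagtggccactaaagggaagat

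Of the 5 membrane-bound MMPs tested, 4 were higher and 1, Mmp14, was lower in 15-HETrE, with a median log2 fold change of 0.06 that ran from -0.19 to 0.63 over the alternatives. Within the combined pair 3 of the 5 were lower, with a median difference of -0.23, where the stromelysin and elastase group had a median of 0.00 and the other MMPs 1.72. That 0.00 reflects absent reads, as Mmp3, Mmp10 and Mmp12 had none in either combined library. Whether the membrane-bound and the secreted MMPs differ was not tested. Mmp14, which activates pro-Mmp2 at the cell surface (chromosome 14, 54431612 to 54445364), had 20.8, 42.0 and 38.7 CPM in 15-HETrE 1, unnumbered and combined, against 158, 155 and 11.5 CPM in vehicle 1, 2 and combined. Vehicle combined was the lowest of the 6 and vehicle 1 and vehicle 2 the highest. Its log2 fold change was -1.02 (SE 0.83, limma adjusted p 0.719), and without vehicle combined it was -2.24 (limma adjusted p 0.0336). Within 15-HETrE 1, vehicle 1 and vehicle 2 the difference was -2.85, and within the combined pair it was 1.66, of the opposite sign. Mmp24, which is known from neurons and cuts N-cadherin, had 20.5, 16.4 and 37.2 CPM in those 15-HETrE libraries, against 13.0, 8.64 and 24.3 CPM in those vehicle libraries. The groups overlapped, and its log2 fold change was 0.69 (SE 0.51, limma adjusted p 0.694). Mmp17, which is held in the membrane by a lipid anchor, had a log2 fold change of 0.47 (SE 0.46), Mmp16 of 0.06 (SE 0.32) and Mmp15 of 0.01 (SE 0.67), with limma adjusted p from 0.764 to 0.998. Without vehicle combined Mmp24, Mmp16 and Mmp15 stood at 1.06, 0.40 and 0.77. For Mmp15 and Mmp16 the sign changed under 7 and 5 of the 20 alternatives. Mmp16 had 80.6 to 86.9 CPM in the 15-HETrE libraries, against 55.8 to 128 CPM in the vehicle libraries, and for Mmp15 and Mmp16 the mean CPM was lower in 15-HETrE although the log2 fold change was above 0. The other 3 tested MMPs, Mmp19, Mmp23 and Mmp28, were lower on average, with a median of -0.82. Mmp19 had 1.05, 0.477 and 2.30 CPM in the 15-HETrE libraries, against 13.5, 19.6 and 0 CPM in the vehicle libraries, again with reads mainly in vehicle 1 and vehicle 2. Mmp19 stood at -1.63, and at -3.00 without vehicle combined. It shares 28.3% of its exon bases with a gene on the opposite strand, as Mmp24 does for 13.6% and Mmp28 for 12%, so their reads are uncertain without strand.

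Among the ADAMs, the medians of members with the zinc-binding site and of members without it lay on different sides of 0. Those without it include Adam4, Adam18 and Adam32, which are known from testis and stood at low levels. The 10 tested ADAMs with the site had a median log2 fold change of -0.39, with 6 lower, and the 6 without it a median of 0.22, with 2 lower. This split is a description of the fitted values and was not tested. Of the 8 tested ADAM proteases not listed as testis genes, here called somatic, 6 were lower. Of the 8, 4 had groups without overlap on the lower side, Adam9, Adam10, Adam17 and Adam19, and 0 on the higher side. The background over all genes was 8.32% on the lower side and 6.84% on the higher side. The summed level of the somatic ADAM proteases, with Adam28 at no read, was 547, 608 and 443 CPM in 15-HETrE 1, unnumbered and combined, against 856, 987 and 649 CPM in vehicle 1, 2 and combined. All 3 sums of the 15-HETrE libraries lay below those of the vehicle libraries. The sums include the 4 members without overlap, so this is not a further result.

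Adam10 and Adam17, the main sheddases of the cell surface, differed by small amounts in all libraries. Adam10, an alpha-secretase of the amyloid precursor protein that also cuts Notch and N-cadherin (chromosome 9, 70678997 to 70780229), had 199, 183 and 178 CPM in 15-HETrE 1, unnumbered and combined, against 237, 284 and 223 CPM in vehicle 1, 2 and combined. Adam17, which releases tumour necrosis factor and ligands of the EGF receptor (chromosome 12, 21323509 to 21373632), had 49.7, 59.0 and 39.2 CPM in those 15-HETrE libraries, against 65.4, 71.0 and 71.2 CPM in those vehicle libraries. For both genes the lowest vehicle library lay above the highest 15-HETrE library, and vehicle combined did not stand apart from the other vehicle libraries. Log2 fold changes were -0.40 (SE 0.22, limma adjusted p 0.610) for Adam10 and -0.50 (SE 0.27, limma adjusted p 0.606) for Adam17. Within 15-HETrE 1, vehicle 1 and vehicle 2 the differences were -0.38 and -0.45, and within the combined pair -0.32 and -0.85. As for every member without overlap, the sign within each pair was fixed. Adam9, another sheddase of the surface (chromosome 8, 24949611 to 25016927), had 173, 151 and 127 CPM in the 15-HETrE libraries, against 219, 295 and 202 CPM in the vehicle libraries. It again separated the groups, at a log2 fold change of -0.66 (SE 0.25, limma adjusted p 0.482). Per length, Adam10 and Adam9 were among the most abundant proteases of the family. Adam10 had 38.0 ± 2.31 and Adam9 36.5 ± 5.57 CPM per kb in 15-HETrE libraries, against 50.4 ± 6.49 and 58.1 ± 12 CPM per kb in vehicle libraries (SD, n = 3 each).

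Adam19 and Adam12, known as meltrins from the muscle and mesenchyme in which they were studied, differed more. Adam19, which cuts neuregulin (chromosome 11, 46055992 to 46147343), had 27.1, 39.1 and 11.2 CPM in 15-HETrE 1, unnumbered and combined, against 86.5, 96.1 and 39.2 CPM in vehicle 1, 2 and combined. The groups came closest between 15-HETrE unnumbered and vehicle combined, at 39.1 and 39.2 CPM. Its log2 fold change was -1.54 (SE 0.49, limma adjusted p 0.428), and it was about as large within 15-HETrE 1, vehicle 1 and vehicle 2, at -1.71, as within the combined pair, at -1.72. It shares 10.1% of its exon bases with a gene on the opposite strand. Adam12 (chromosome 7, 133883199 to 134232146) had 32.5, 85.3 and 36.8 CPM in the 15-HETrE libraries, against 153, 142 and 68.3 CPM in the vehicle libraries. Only 15-HETrE unnumbered and vehicle combined crossed, and the log2 fold change was -1.27 (SE 0.43, limma adjusted p 0.457). Adam15, with 20.6% of its exon bases shared in the same way, was lower on average at -0.39 (SE 0.34, limma adjusted p 0.732), while Adam33 and Adam8 were higher at 1.24 (SE 1.16) and 0.64 (SE 0.75), with limma adjusted p of 0.752 and 0.805. Adam33 had 12.8, 21.1 and 0.270 CPM in the 15-HETrE libraries, against 8.74, 2.02 and 0 CPM in the vehicle libraries, so its combined libraries were the lowest on both sides. Without vehicle combined Adam15, Adam33 and Adam8 stood at -0.71, 0.43 and 0.12.

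Over all libraries, the non-catalytic ADAMs of neurons were higher on average in 15-HETrE on the log2 scale. So were the LGI genes that encode their ligands. Adam22, Adam23 and Adam11 encode membrane proteins of axons and synapses that lack the zinc-binding site and act as receptors, and secreted LGI1 links Adam22 and Adam23 across the synapse. Adam23 (chromosome 1, 63445891 to 63596276) had 268, 237 and 209 CPM in 15-HETrE 1, unnumbered and combined, against 157, 110 and 181 CPM in vehicle 1, 2 and combined. It was the only tested member whose libraries were all higher in 15-HETrE. Adam23 thus had a log2 fold change of 0.69 (SE 0.26, limma adjusted p 0.474), and it was 1.02 within 15-HETrE 1, vehicle 1 and vehicle 2 and 0.21 within the combined pair. Adam22 had 360, 265 and 203 CPM in the 15-HETrE libraries, against 312, 185 and 158 CPM in the vehicle libraries. Adam11 had 60.9, 48.2 and 44.5 CPM in the 15-HETrE libraries, against 40.2, 32.4 and 85.1 CPM in the vehicle libraries. Both overlapped between groups, with log2 fold changes of 0.36 (SE 0.32, limma adjusted p 0.740) and 0.08 (SE 0.38, limma adjusted p 0.959); that of Adam11 changed sign under 5 of the 20 alternatives. Without vehicle combined Adam22 stood at 0.16 and Adam11 at 0.48. Among the ligands, all 4 were higher on average and 0 passed. Lgi1 had 99.4, 58.6 and 62.8 CPM in the 15-HETrE libraries, against 65.4, 39.1 and 21.6 CPM in the vehicle libraries, a log2 fold change of 0.89 (SE 0.41, limma adjusted p 0.540). Lgi3, the most abundant of the 4, had 0.18 (SE 0.28). Lgi4 and Lgi2 had 1.32 (SE 0.76) and 0.73 (SE 0.64). The limma adjusted p of Lgi2, Lgi3 and Lgi4 ran from 0.618 to 0.853. Without vehicle combined Lgi1, Lgi2, Lgi3 and Lgi4 stood at 0.49, 0.82, 0.0004 and 0.68. Within 15-HETrE 1, vehicle 1 and vehicle 2, Lgi1 and Lgi2 differed by 0.96 and 1.47, but Lgi3 and Lgi4 by -0.30 and -0.33. Within the combined pair only Lgi2 was lower, at -0.67, while Lgi4 had 40.7 against 1.80 CPM. Lgi4 shares 44.9% of its exon bases with a gene on the opposite strand, so its reads are uncertain without strand. Beside these genes, neuron markers were higher for 9 of 10. Their summed level was 3330 to 6337 CPM in the 15-HETrE libraries, against 1994 to 3447 CPM in the vehicle libraries, with none at 0. Their part in the levels of Adam22, Adam23 and Adam11 was not tested.

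ADAMTS proteases were lower on average for 13 of 17 tested, with a median of -0.84. Of the 7 that cut aggrecan, versican and related proteoglycans, 6 were lower, with a median of -0.94. Adamts1 (chromosome 16, 85793827 to 85803113) had 106, 190 and 121 CPM in 15-HETrE 1, unnumbered and combined, against 193, 280 and 322 CPM in vehicle 1, 2 and combined. The groups were separated by the small gap between 15-HETrE unnumbered and vehicle 1, and vehicle combined was the highest library here. The log2 fold change of Adamts1 was -0.94 (SE 0.30, limma adjusted p 0.425). Adamts4, aggrecanase-1, had 72.5, 163 and 107 CPM in the 15-HETrE libraries, against 121, 143 and 161 CPM in the vehicle libraries. It overlapped between groups, at -0.38 (SE 0.31, limma adjusted p 0.721). Per length these 2 were the most abundant ADAMTS, with 26.2 ± 8.44 CPM per kb for Adamts1 and 23.7 ± 9.47 for Adamts4 in the 15-HETrE libraries, against 50.0 ± 12.4 and 29.4 ± 4.147 CPM per kb in the vehicle libraries (SD, n = 3 each). Adamts9 had 14.6, 6.56 and 14.3 CPM in the 15-HETrE libraries, against 27.2, 38.3 and 11.1 CPM in the vehicle libraries, and shares 12% of its exon bases with a gene on the opposite strand. Adamts20 had 28.3, 37.8 and 10 CPM in the 15-HETrE libraries, against 13.2, 9.76 and 46.0 CPM in the vehicle libraries. The combined pair ran against the other libraries for both genes, at 0.34 for Adamts9 and -2.10 for Adamts20, where 15-HETrE 1, vehicle 1 and vehicle 2 gave -1.10 and 1.24. Over all libraries they had log2 fold changes of -0.97 (SE 0.56, limma adjusted p 0.618) and 0.26 (SE 0.65, limma adjusted p 0.919), and without vehicle combined of -1.45 and 0.91.

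Adamts7 and Adamts12, related proteases that cut cartilage oligomeric matrix protein, had the largest differences of the ADAMTS on the log2 scale. Adamts7 (chromosome 9, 90163069 to 90208071) had 2.28, 0.597 and 0 CPM in 15-HETrE 1, unnumbered and combined, against 12.8, 9 and 6.65 CPM in vehicle 1, 2 and combined. These were 50, 10 and 0 reads in the 15-HETrE libraries and 273, 200 and 37 reads in the vehicle libraries, without overlap. On the log2 scale the difference was -2.55 (SE 0.69, limma adjusted p 0.394, DESeq2 adjusted p 0.147). Adamts12 (chromosome 15, 11064790 to 11349231) had 0.819, 0.239 and 0 CPM in the 15-HETrE libraries, against 34.9, 37.6 and 0 CPM in the vehicle libraries. The difference thus rested on vehicle 1 and vehicle 2, as both combined libraries had no read. Its log2 fold change was -3.09 (SE 1.26, limma adjusted p 0.501), and without vehicle combined it was -4.83 (limma adjusted p 0.0165). The 3 procollagen N-proteinases, which trim the ends of fibrillar procollagens, differed in direction, at -1.55 (SE 1.36) for Adamts14, -0.88 (SE 0.69) for Adamts2 and 0.25 (SE 0.43) for Adamts3, with limma adjusted p from 0.705 to 0.870. Without vehicle combined they stood at -3.10, -1.33 and 0.57. Adamts3, which is also known to cut reelin in the brain, had 19.0, 27.2 and 38.9 CPM in the 15-HETrE libraries, against 18.4, 17.7 and 35.6 CPM in the vehicle libraries. It overlapped between groups, and the combined library was the highest on both sides. Adamts14 had 0.683, 13.8 and 0 CPM in the 15-HETrE libraries, against 18.7, 30.9 and 0 CPM in the vehicle libraries. Of the other ADAMTS, Adamts10, which acts on microfibrils, had 7.97, 13.0 and 5.68 CPM in the 15-HETrE libraries, against 15.7, 12.8 and 19.6 CPM in the vehicle libraries. Only 15-HETrE unnumbered and vehicle 2 crossed for Adamts10, at a log2 fold change of -0.83 (SE 0.50, limma adjusted p 0.627), while Adamts6 stood at -0.13 (SE 0.44).

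The low part of the family was made up mostly of ADAMs known from testis and sperm. Of 21 such members, 9 had no read in any library and 5 were tested, at a median of 0.30. Among the tested ones Adam4 had 2.78, 1.97 and 1.49 CPM in 15-HETrE 1, unnumbered and combined, against 2.34, 5.22 and 15.3 CPM in vehicle 1, 2 and combined, with vehicle combined highest. Adam32 had 2.73, 0 and 1.62 CPM in the 15-HETrE libraries, against 1.36, 1.80 and 11.7 CPM in the vehicle libraries. Both genes overlapped between groups, at log2 fold changes of -1.20 (SE 0.73) for Adam4 and -1.03 (SE 0.87) for Adam32, with limma adjusted p of 0.628 and 0.724. Without vehicle combined they stood at -0.59 and -0.26. Adam1a, which shares 63.7% of its exon bases with another annotated gene on the same strand and has a paralogue, Adam1b, is uncertain at 0.30 (SE 0.66). Outside the testis group, the 3 remaining members without a read were Mmp7, Mmp20 and Adam28. The 15 low members with reads had at most 81 reads over all libraries. Adam34 had 0 reads in every 15-HETrE library, against 2, 0 and 32 reads in vehicle 1, 2 and combined. Mmp1a, a collagenase gene with a paralogue in Mmp1b, had 0 reads in every 15-HETrE library, against 5, 76 and 0 reads in those vehicle libraries. Mmp21 had 7, 0 and 0 reads in 15-HETrE 1, unnumbered and combined, against 22, 17 and 12 reads in the vehicle libraries, and its groups did not overlap. The other low member without overlap, Adam2, chosen after its values were seen, had 0 reads in every 15-HETrE library, against 4, 2 and 5 reads in the vehicle libraries. Adam5 had 2, 0 and 5 reads in the 15-HETrE libraries, against 14, 47 and 0 reads in the vehicle libraries. The last tested member and the first left out had means of 1.00 and 0.975 CPM. Through the vehicle libraries only, 4 tested members passed the filter, Mmp9, Mmp12, Adamts7 and Adamts12. Through the 15-HETrE libraries only, 2 passed it, Adam21 and Adamts18. The direction of these members is no support for either side.

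Genes outside the family that act on these proteases had no call in limma over all libraries either. Of 20 regulators (activating proteases, clearance receptors, inhibitors and partners), 7 were higher and 13 lower, with a median log2 fold change of -0.44 and 0 passing. Lrp1, the endocytic receptor that clears MMP and TIMP complexes, had 1174, 812 and 1699 CPM in 15-HETrE 1, unnumbered and combined, against 1297, 1137 and 1463 CPM in vehicle 1, 2 and combined. It overlapped between groups, at -0.14 (SE 0.34, limma adjusted p 0.919). Tspan5, a tetraspanin partner of Adam10, had 152, 103 and 102.5 CPM in the 15-HETrE libraries, against 101.8, 75.0 and 55.2 CPM in the vehicle libraries. It was the only 1 of the 20 regulators without overlap, on the higher side and by a narrow gap, at 0.63 (SE 0.30, limma adjusted p 0.552). The background over all genes was 6.84% on the higher side and 8.32% on the lower side. Adam10 itself was on the lower side. Plau, the urokinase-type plasminogen activator, had 4.73, 10.4 and 9.87 CPM in the 15-HETrE libraries, against 62.4, 112 and 0.180 CPM in the vehicle libraries. On the log2 scale it differed by -1.19 (SE 1.39, limma adjusted p 0.804), and without vehicle combined, which held 1 read, it was -3.25 (limma adjusted p 0.0241). Bsg, an inducer of MMPs, stood at -0.18 (SE 0.24). The 6 ADAMTS-like genes, which encode matrix proteins without a protease domain, split into 2 higher and 4 lower, with a median of -0.25. Adamtsl1, Adamtsl4, Adamtsl3 and Adamtsl5 stood at 0.21, -0.26, -0.36 and 0.86, with limma adjusted p from 0.732 to 0.881.

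Of the 20 listed substrates 19 were tested, with 10 higher, 9 lower, a median of 0.12 and 0 passing in limma over all libraries. App, the amyloid precursor protein cut by Adam10, had 1764, 1838 and 1032 CPM in 15-HETrE 1, unnumbered and combined, against 1659, 1490.0 and 1045 CPM in vehicle 1, 2 and combined. The combined libraries were the lowest of both groups, and the log2 fold change was 0.12 (SE 0.35, limma adjusted p 0.932). Vcan, which encodes versican, a substrate of the ADAMTS proteoglycanases, had 789, 652 and 759 CPM in the 15-HETrE libraries, against 875, 1127 and 852 CPM in the vehicle libraries. It did not overlap, on the lower side, at -0.37 (SE 0.26, limma adjusted p 0.679). Nrcam, an adhesion molecule of axons, had 535, 445 and 523 CPM in the 15-HETrE libraries, against 396, 222 and 414 CPM in the vehicle libraries. It did not overlap, on the higher side, at 0.59 (SE 0.29, limma adjusted p 0.565), and Ncan, neurocan of perineuronal nets, overlapped at 0.64 (SE 0.42, limma adjusted p 0.655). In all, 2 substrates were without overlap on the higher side, Nrcam and Nlgn1, and 5 on the lower side, Cd44, Il6ra, Tnfrsf1a, Vcan and Dag1, where the background over all genes was 6.84% and 8.32%. Tnfrsf1a, a receptor of tumour necrosis factor that Adam17 sheds, had 13.9, 15.9 and 14.7 CPM in the 15-HETrE libraries, against 54.6, 64.4 and 25.2 CPM in the vehicle libraries. It stood at -1.53 (SE 0.42, limma adjusted p 0.394, edgeR adjusted p 0.468), while DESeq2 called it (adjusted p 0.0289), as did limma without vehicle combined, at -1.93 (adjusted p 0.0371), and without both combined libraries, at -1.92 (adjusted p 0.0359). These names, beyond Vcan and Nrcam, and Plau were chosen after their values were seen.

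Taken by column name prefix, the members gave different counts. Within 15-HETrE 1, vehicle 1 and vehicle 2, which share a column name prefix, 35 of 52 members were lower, 67.3% beside 49.7% of all genes, with a median difference of -0.76. Within the combined pair 21 were lower, 40.4% beside 45.0% of all genes, with a median of 0.03. Mmp3, Mmp10, Mmp12, Adamts12 and Adamts14 had no read in either combined library, so they counted there as neither lower nor higher. Lower in both were 14 members, 26.9% beside 26.3% of all genes, and higher in both 10. By group, the somatic ADAM proteases had medians of -0.52 and -0.49 in these pairs of groups, and the MMPs of -1.67 and 0.00. The fibroblast list differed by -4.28 and -0.72 there, the pericyte list by -1.75 and -0.64 (means over the markers, log2 scale). The second prefix held 15-HETrE unnumbered alone and gave no difference. With the prefix as a batch term, limma called 0 members, beside 0.00689% of all genes called as higher and 0.0482% as lower. At an unadjusted p under 0.05 that fit had 15 members, against 8 without the term. The share over all genes at this unadjusted threshold was not computed for the batch term, so the 15 are not a result about the members. Without vehicle combined, limma called 0 members as higher and 4 as lower, Timp1, Mmp9, Mmp14 and Adamts12, where the backgrounds were 0.0138% and 0.743%. When both combined libraries were left out it called 0 as higher and 7 as lower, these 4 with Mmp3, Mmp11 and Mmp19, where the backgrounds were 0.0206% and 1.38%. Mmp9 and Adamts12, called as lower in both of these fits, passed the filter only through the vehicle libraries. Their direction is thus no support, and the counts of 4 and 7 include them. Library weights led to 3 members called as higher and 21 as lower by limma, where the backgrounds were 7.29% and 9.41%. The weights were 3.16, 0.508 and 0.441 for 15-HETrE 1, unnumbered and combined, and 1.82, 3.75 and 0.206 for vehicle 1, 2 and combined. The 15-HETrE side of that fit thus rested mostly on 15-HETrE 1. The 3 higher ones were Adam23, Mmp24 and Adamts20.

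**Figure D4:**
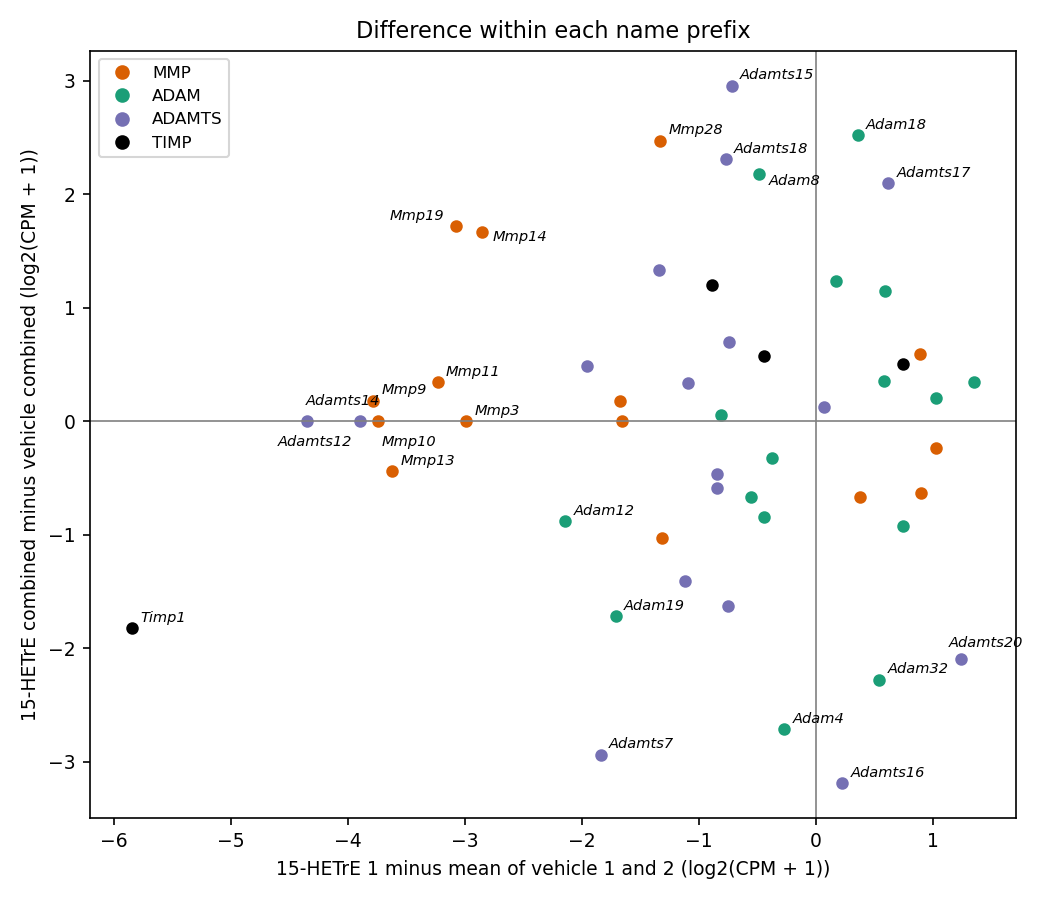
Difference of each tested member within the libraries of the first name prefix (x axis, 15-HETrE 1 minus the mean of vehicle 1 and vehicle 2) and within the combined pair (y axis, 15-HETrE combined minus vehicle combined), both on the log2(CPM + 1) scale and coloured by family. Timp1 lies at -5.84 and -1.82 and Adam19 at -1.71 and -1.72, while Mmp14 and Mmp19 lie left of 0 and above it.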

How the data were processed

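The authors deposited a signal per gene and library, CPM multiplied by a size factor, as the values show: column sums run from 960982 to 1080354, and 100% of values in every column are whole multiples of 1 read within a tolerance of 1e-04. The submitters' processing notes name Trimmomatic, HISAT2, featureCounts, edgeR and mm10, while versions, settings, strand and annotation are not stated in the sources used here. The test had been planned for CPM and was applied to the scaled CPM. Column names give each library's group.

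All 14523 genes whose mean over the 6 libraries reached 1 CPM were fitted as log2(CPM + 1) in limma 3.58.1 (R 4.3.3) with a variance trend and the group as the only term. Two-sided p-values were adjusted over these genes by Benjamini-Hochberg, at 0.05. A fold change is 15-HETrE minus vehicle on the log2(CPM + 1) scale and understates the change of a low gene. edgeR 4.0.16 and DESeq2 1.42.0 were run on the recovered reads as alternatives; an adjusted p that DESeq2 did not give stays missing. Other alternatives changed the pseudocount, filter, scaling, library weights, variance trend, libraries or batch term. The scripts were tested on simulated counts.

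Reads carry no molecular identifiers, so depths and floors (3 reads) cover counting error only. Positions, exon lengths and overlaps come from GENCODE M21 (GRCm38), in which all 79 members were found. Zinc-binding sites come from its coding sequences and promoters from RefSeq (GRCm38.p6, 49 members found). The members, gene lists and tests were chosen with earlier results of these data known. Genes named are the 4 TIMPs; of each other group the up to 4 tested members with the highest mean and the up to 2 with the smallest p; all tested members without overlap; the 4 highest low members; and up to 4 genes with the highest mean per outside list. Further members that complete a group were named after their values were seen. A gene outside the family that the rule also names is not reported here.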

Additional observations from a re-analysis of the deposited data

How the results depend on the processing

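Over 20 alternatives the median log2 fold change of the members stayed below 0 (-0.69 to -0.37). Of 43 named members, 32 kept their sign under every alternative that gave a value, and 11 changed it at least once; 3 of 12 group medians changed sign. For members passing the test, against 0 higher and 0 lower in limma, library weights gave 3 higher and 21 lower (1059 and 1366 over all genes), DESeq2 gave 0 and 1 (35 and 130 over all genes), and the fit without both combined libraries gave 0 and 7 (3 and 201 over all genes). A batch term for the prefix called no member and, over all genes, 1 higher and 7 lower. Leaving out 1 library gave 0 to 2 genes higher and 0 to 108 lower, with 0 to 4 members lower, and the upper ends came without vehicle combined. Lower calls of Mmp9, Adamts7 and Adamts12 under any alternative are no support, as these passed the filter only through the vehicle libraries. Members without overlap, 1 higher and 7 lower in all 6 libraries, numbered 3 higher under quantile normalization, and 10 higher and 27 lower without both combined libraries. Leaving out 1 library gave 2 to 5 higher and 8 to 23 lower, with 12 lower without 15-HETrE unnumbered and 23 without vehicle combined. Smaller groups overlap less by construction. No share over all genes stands beside these alternative counts, so they are not a result about the members. The causes of the other shifts were not tested. No paired analysis was possible because the columns share only replicate number 1 between groups, so the planned replicate block was not run; the batch term above is a block by column name (either prefix, or combined), not by replicate number. Depth limits the low members: 3 reads are worth 0.135 CPM in vehicle 2 and 0.540 CPM in vehicle combined.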
